A study of Mus musculus with 9 samples.

Results

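The genes described here are Nos2, Nos1, Nos3, Ass1, Asl, Slc7a1, Slc7a2 and Ddah1, which are 8 of a set of 10 genes of nitric oxide and arginine metabolism taken from 55228 genes in a table of RNA-seq counts. They were found in the table by name. Nos2 was chosen on its measured values, because it was already known from these counts to lie above the parental line in both edited lines, and the others were added for their roles in the same pathway. The values of these genes are therefore given as a description, without p-values. Of the 8 genes described, 7 passed the filter on low counts, which Nos1 did not pass.

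Polyadenylated RNA was sequenced from 9 cultures of HC11, an immortalised mouse mammary epithelial cell line, to ask which transcripts differ when Vangl2, a membrane protein of planar cell polarity, is disrupted. There were 3 cultures each of the parental line (WT) and of the lines labelled Vangl2 knockout 1 and Vangl2 knockout 2, called KD1 and KD2 here. All were undifferentiated and untreated, in medium that held EGF at 10 ng/mL, insulin at 5 µg/mL and fetal bovine serum at 10%. Each edited line was grown from a colony of cells that received Cas9 with its own guide RNA and a repair template carrying stop codons. Each line thus stands for 1 clone, no unedited clone was analysed here, and the loss of Vangl2 and differences between clones cannot be told apart. The labels do not say whether the replicates of a line were started separately, so p-values measure only the spread between these samples, which may be technical.

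Total counts ranged from 19231428 to 28360592 per culture. A floor of 3 counts, which corresponds to between 0.0999 and 0.154 counts per 1000000 counts (CPM) depending on the culture, was taken as the least that a library can show. Floors and intervals given here cover counting error only. The replicates were not equally alike. Between pairs of KD1 cultures the chi-square per degree of freedom over genes was 1.54, 1.37 and 1.81. It was 13.1 and 10.7 between WT replicate 1 and the other WT cultures, against 3.38 between those. KD2 replicate 3 differed from KD2 replicates 1 and 2 by 17.4 and 22.1, against 1.74 between these. WT replicate 1 and KD2 replicate 3 therefore stand apart.

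Vangl2 itself had 66, 99 and 86 counts in WT, 75, 48 and 69 in KD1, and 90, 118 and 90 in KD2. In CPM the KD1 cultures lay below every WT culture and the KD2 cultures overlapped with WT. The log2 fold change was -0.63 ± 0.171 (SE) in KD1 (adjusted p = 0.0058, edgeR quasi-likelihood test, Benjamini-Hochberg adjustment) and 0.05 ± 0.162 in KD2 (adjusted p = 0.81). Transcript counts do not show whether inserted stop codons were present, so these values check the label of neither line, and KD1 and KD2 are used below as the labels give them. By immunoblot, the paper reports almost no VANGL2 protein in the line it calls KD1 and a strong reduction in KD2.

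Markers of cell types were read in the same libraries. Of 9 epithelial markers 8 were above the floor in some culture, with Krt5 the most abundant at 1960 to 2220 CPM in WT, 2140 to 2200 in KD1 and 967 to 1240 in KD2, and Krt19 at 0 counts throughout. The 9 summed to 4840 to 5410 CPM in WT, 6090 to 6240 in KD1 and 2890 to 3590 in KD2. They did not move together in KD2. At an adjusted p under 0.05, 5 of the 8 tested were below WT and 1, Krt8, was above it (158 to 268 CPM). Of 14 markers of macrophages and other leukocytes, which are well known producers of nitric oxide, 7 never exceeded 3 counts, among them the defining genes Ptprc, Adgre1, C1qa and Tyrobp. The summed level of these 14 was 9.84 to 12.3 CPM in WT, 19 to 21.4 in KD1 and 23.7 to 27.8 in KD2, most of it from Cd14, at 6.2 to 7.18, 10.3 to 11.8 and 18.7 to 21.7 CPM. Of the 4 that passed the filter on low counts, 1 was called higher in KD1 (25%) and 3 in KD2 (75%), where calls are defined below and 9.34% and 14.5% of all genes were called higher. Of these 4, Mrc1 passed only through its KD1 counts and Lyz2 only through its KD2 counts, so nothing is read from these shares. Mrc1 had 0 counts in each WT culture, 26, 24 and 17 in KD1, and 3, 6 and 1 in KD2. Lyz2 had 1, 1 and 0 counts in WT, 0 in each KD1 culture, and 31, 41 and 27 in KD2. Cd68 had 115, 86 and 61 counts in WT, 207, 210 and 168 in KD1, and 87, 118 and 94 in KD2. Its log2 fold changes of 0.89 in KD1 and -0.02 in KD2 were not called. Csf1r, which did not pass the filter, had 1, 2 and 2 counts in WT, 13, 6 and 7 in KD1, and 2, 3 and 0 in KD2. Of 6 endothelial markers Kdr and Tie1 stayed at or under the floor, and the sum was 3.07 to 3.52 CPM in WT, 5.02 to 5.78 in KD1 and 1.52 to 2.22 in KD2, with Pecam1 the most abundant. Others did not follow Pecam1, as Cdh5 had 0, 0 and 1 counts in WT, 5, 7 and 5 in KD1, and 22, 24 and 7 in KD2. Egfl7 was called lower in both lines (log2 fold change -2.79 and -3.37), with its KD2 counts at or under the floor. The 6 fibroblast markers summed to 16.4 to 22.2 CPM in WT, 7.99 to 9.97 in KD1 and 25.9 to 27.3 in KD2, with Pdgfra the most abundant and Lum at or under the floor. Epithelial markers were thus the most abundant by far, while some markers of other cell types differed between the lines, and whether the marker differences bear on the results below was not tested.

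Nitric oxide synthases turn arginine into nitric oxide and citrulline and need the cofactor tetrahydrobiopterin. Nos2 is the inducible form, switched on in macrophages and epithelia by interferon gamma and bacterial or cytokine signals that act through NF-kappa B and IRF1. Arginine is also a source of ornithine and, through it, of proline and polyamines, and lactating mammary tissue is known to take up arginine and to make proline from it.

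Counts of Nos2 were 7, 10 and 8 in WT, 4620, 4311 and 4166 in KD1, and 250, 265 and 218 in KD2. On the CPM scale this is 0.383 ± 0.0217 (SD, n = 3) in WT, 169 ± 1.28 in KD1 and 9.88 ± 0.97 in KD2. The lines did not overlap, and KD2 lay between WT and KD1. The ratio of mean CPM was 442 for KD1 over WT, 25.8 for KD2 over WT and 17.1 for KD1 over KD2. Because the WT level rests on 25 counts in all, the ratio of pooled counts has a 95% exact interval of 298 to 681 for KD1 and 17.1 to 39.5 for KD2. The fitted log2 fold changes were 8.76 ± 0.116 (SE) in KD1 and 4.66 ± 0.153 in KD2 against the same WT cultures, and -4.11 ± 0.0733 between KD2 and KD1. In bulk RNA a change in the share of cells that make a transcript and a change in the amount per cell cannot be told apart.

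The constitutive synthases were scarce. Nos1, the neuronal form, had 0 counts in every culture except 1 count in KD2 replicate 2, so no fold change is given. Nos3, the endothelial form, had 6, 19 and 7 counts in WT, 21, 15 and 14 in KD1, and 7, 21 and 7 in KD2. Its lines overlapped, and the log2 fold changes of 0.40 ± 0.4 (SE) in KD1 and -0.08 ± 0.429 in KD2 were no larger than their errors, though the KD1 value was 1.00 without WT replicate 2. Reads of Nos3 are uncertain besides, since 20% of its 50-base windows also occur in another gene. Gm15587, with at most 1 count, and Atg9b, with 312 to 1457 counts per culture and most in KD1, overlap it on the opposite strand, and the sources used here do not state whether counting used the strand. Within the synthase family, transcript above a few CPM was thus seen for Nos2 alone, and in KD1 and KD2 alone.

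**Figure D1:**
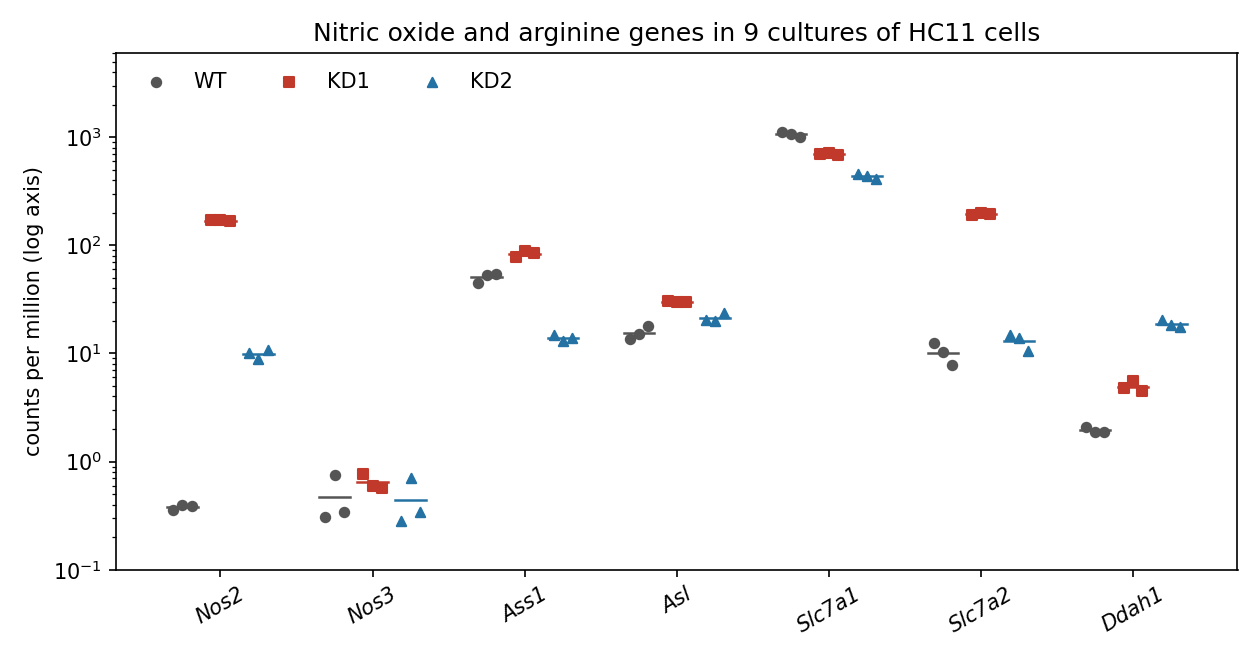
Level of 7 genes in each culture, in CPM on a log axis; points are cultures, short lines are means of 3 cultures, and colours and shapes mark WT, KD1 and KD2. Nos1 is not drawn because its counts were 0 or 1; Nos2 lies at 0.359 to 0.4 CPM in WT, 8.82 to 10.7 in KD2 and 168 to 171 in KD1.

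Citrulline released by the synthases is returned to arginine by argininosuccinate synthase (Ass1), the limiting step, and argininosuccinate lyase (Asl). Ass1 had 874, 1332 and 1121 counts in WT, 2131, 2254 and 2092 in KD1, and 366, 387 and 280 in KD2. Every KD1 culture lay above WT in CPM, and every KD2 culture lay below it. The means were 50.9 ± 5.38 CPM (SD, n = 3) in WT, 83.9 ± 5 in KD1 and 13.8 ± 0.956 in KD2, and the log2 fold changes against WT were 0.72 ± 0.0803 (SE) and -1.89 ± 0.0899. Although 38.6% of the windows of Ass1 recur in other genes, mostly the processed pseudogene Gm5424, that pseudogene was credited with at most 3 counts in any culture. Reads that fit both may have been dropped in all lines, which makes the level of Ass1 uncertain.

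Asl did not follow Ass1 in KD2. It had 265, 378 and 370 counts in WT, 821, 765 and 749 in KD1, and 503, 596 and 477 in KD2. Both edited lines lay above WT in every culture, at 30.2 ± 0.114 CPM (SD, n = 3) in KD1 and 21.2 ± 1.97 in KD2 against 15.6 ± 2.28 in WT. The log2 fold changes were 0.95 ± 0.0973 (SE) and 0.44 ± 0.0996. The pair of recycling enzymes thus lay above WT together in KD1, while in KD2 they lay on opposite sides of WT.

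Arginine enters cells through cationic amino acid carriers, of which Slc7a1 is the widespread form and Slc7a2 is known to be induced along with Nos2 in macrophages. Slc7a1 was the most abundant gene of the set, with 21834, 26412 and 20617 counts in WT, 18763, 18302 and 17101 in KD1, and 11277, 13258 and 8373 in KD2. The lines did not overlap in CPM, with means of 1060 ± 56 (SD, n = 3), 701 ± 16.5 and 436 ± 22.4. Its log2 fold change was -0.60 ± 0.0575 (SE) in KD1 and -1.28 ± 0.0583 in KD2.

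Slc7a2 had 242, 261 and 159 counts in WT, 5196, 5032 and 4794 in KD1, and 363, 418 and 213 in KD2. Its KD1 cultures stood apart from the rest, at 194 ± 3.14 CPM (SD, n = 3) against 10.2 ± 2.33 in WT and 13 ± 2.24 in KD2. The ratio of mean CPM between KD1 and WT was 19.1, with a log2 fold change of 4.25 ± 0.134 (SE). KD2 overlapped with WT, and its log2 fold change of 0.36 ± 0.144 became 0.63 without WT replicate 1 and KD2 replicate 3. Nos2 was thus above WT in both lines, and Slc7a2 stood apart from WT in KD1 only. Of the windows of Slc7a2, 6.42% overlap Gm26584 on the other strand.

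Ddah1 breaks down asymmetric dimethylarginine, an inhibitor of nitric oxide synthases released when methylated proteins are degraded. It had 41, 47 and 38 counts in WT, 129, 141 and 111 in KD1, and 506, 551 and 355 in KD2. The lines did not overlap, and here KD2 was the highest. Mean levels were 1.95 ± 0.135 CPM (SD, n = 3), 4.93 ± 0.553 and 18.8 ± 1.54, and the log2 fold changes against WT were 1.34 ± 0.142 (SE) in KD1 and 3.27 ± 0.126 in KD2. No window of Nos2, Asl or Ddah1 was shared with another gene.

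**Figure D2:**
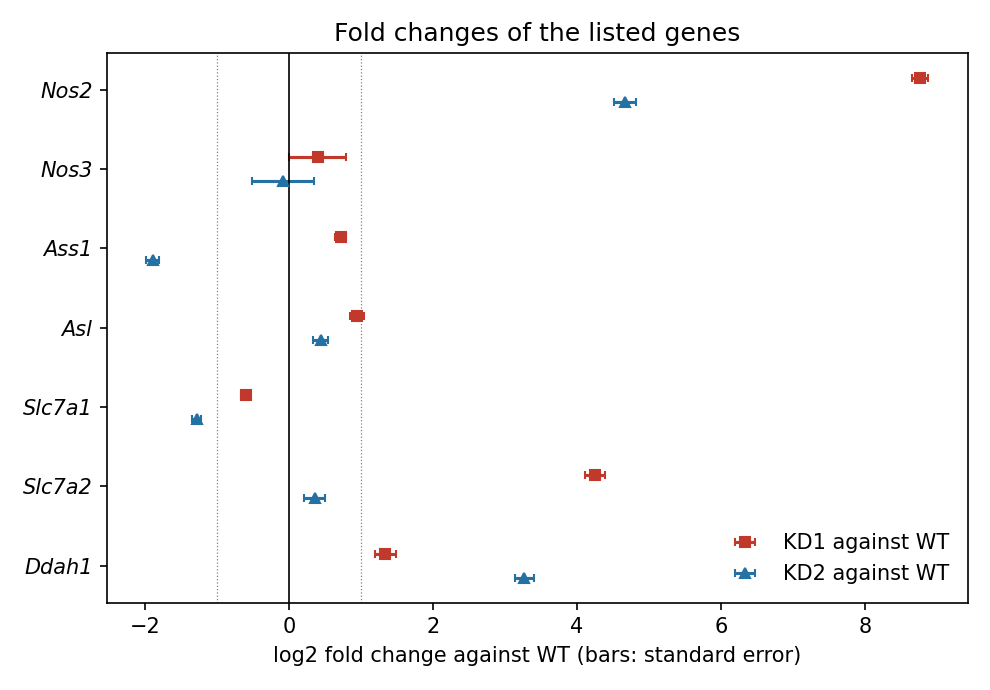
Log2 fold change of 7 genes in KD1 and in KD2 against the same WT cultures, with standard errors as bars; dotted lines mark -1 and 1. Nos2 and Ddah1 lie beyond 1 in both lines, with KD1 further out for Nos2 (8.76) and KD2 for Ddah1 (3.27), and the values of Ass1 lie on opposite sides of 0.

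Dividing CPM by the length of each gene's merged exons in kilobases allows levels to be ordered between genes. In WT, Slc7a1 was highest with a mean of 92 CPM per kb, followed by Ass1 at 21.1 and Asl at 3.23. Slc7a2 followed at 1.12 CPM per kb. Ddah1 came next at 0.488, and Nos3 and Nos2, which overlapped, at 0.114 and 0.0868 CPM per kb. In KD1 the order per kb was Slc7a1 at 60.8, Nos2 at 38.4, Ass1 at 34.8, Slc7a2 at 21.3, Asl at 6.25, Ddah1 at 1.24 and Nos3 at 0.156. In KD2 it was Slc7a1 at 37.8, Ass1 at 5.72, Ddah1 and Asl at 4.71 and 4.39, which overlapped, Nos2 at 2.24, Slc7a2 at 1.43 and Nos3 at 0.107. By its mean, Nos2 stood above Nos1 alone in WT, and Nos1 was last in every line. The order of Nos2 and Ass1 in KD1 is uncertain, since reads in the shared windows of Ass1 may have been dropped while its full length was used.

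A gene was called where the adjusted p was under 0.05 and the absolute log2 fold change above 1. Against WT, 3 of the 7 genes described that passed the filter met this rule upward in KD1, where 9.34% of all 15253 genes tested did. In KD2, 2 of the 7 met it upward and 2 downward, beside 14.5% and 6.71% of all genes. Between KD2 and KD1, 1 was higher and 3 were lower in KD2, beside 14.7% and 8.58% of all genes. Since the genes were selected with these comparisons known, nothing is read from these counts. All comparisons with WT share the same 3 WT cultures.

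The surrounding pathway was described by 7 lists with 99 further genes, of which 75 passed the filter on low counts. These lists, and the list of Nos2 regulators below, were chosen with earlier results of these data known. Nothing is therefore read from their shares of calls, and their p-values are given as a description. In KD1 against WT, 14 were called higher and 6 lower (18.7% and 8%), against 9.34% and 7.49% of all genes tested. In KD2 against WT, 10 were higher and 14 lower (13.3% and 18.7%), against 14.5% and 6.71% of all genes. KD2 differed from KD1 by 6 genes called higher and 13 lower (8% and 17.3%), against 14.7% and 8.58%. The median log2 fold change over the 75 was 0.01, -0.22 and -0.16 in these comparisons, beside -0.03, 0.01 and 0.02 over all genes. P-values below are from the edgeR quasi-likelihood test, adjusted over all genes tested by the Benjamini-Hochberg method.

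Of 8 genes for tetrahydrobiopterin, 7 were tested. Gch1, the entry enzyme of its synthesis, had 99, 76 and 74 counts in WT, 231, 206 and 206 in KD1, and 87, 130 and 93 in KD2. It rose in KD1 by a log2 fold change of 1.10 ± 0.161 (SE, adjusted p = 4.6e-05), a call that ended without WT replicate 2 (0.96), and was 0.10 ± 0.173 in KD2 (adjusted p = 0.64). Gchfr, whose protein holds the Gch1 enzyme back, rose in KD2 (log2 fold change 2.50 ± 0.287, adjusted p = 3.6e-06) from 6, 16 and 8 counts in WT to 57, 80 and 59. Qdpr, which recycles the cofactor, fell in KD2 from 36.2 to 16.3 CPM (log2 fold change -1.15 ± 0.0758, adjusted p = 1.4e-08). Spr, the most abundant of the list at 51.8 CPM in WT, had log2 fold changes of 0.19 and 0.22 and was not called.

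Among 16 genes of the urea cycle and of ornithine, proline and creatine metabolism, 11 were tested. In KD1 1 was called higher and 3 lower (9.09% and 27.3%, beside 9.34% and 7.49% of all genes). In KD2 it was 1 and 4 (9.09% and 36.4%, beside 14.5% and 6.71%). Both lines were below WT in enzymes of proline synthesis from glutamate. Pycr1, which makes proline, fell from 87.3 CPM to 21.2 in KD1 (log2 fold change -2.04 ± 0.0697, adjusted p = 1.1e-11) and to 42.5 in KD2 (-1.04 ± 0.0662, adjusted p = 9.9e-09). The KD2 call of Pycr1 sits at the fold limit and ended under several settings, with -0.97 when at least 10 counts were asked of every culture. Aldh18a1, which catalyses the entry step, fell in KD2 from 380 to 119 CPM (log2 fold change -1.68 ± 0.054, adjusted p = 1.8e-11), and at 193 CPM in KD1 its log2 fold change was -0.98 ± 0.0528. In proline breakdown, Prodh fell from 2.21 CPM to 0.674 in KD1 (log2 fold change -1.71, adjusted p = 1.1e-05) and 0.518 in KD2 (-2.05, adjusted p = 2.3e-06). Aldh4a1, the next enzyme of that route, rose from 1.76 CPM to 5.51 and 5.68 (log2 fold change 1.63 and 1.67, adjusted p = 1.9e-06 and 1.2e-06).

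Polyamine genes numbered 18, with 17 tested. In KD1 3 were called higher (17.6%, beside 9.34% of all genes), and KD2 had 3 higher and 2 lower (17.6% and 11.8%, beside 14.5% and 6.71%). Odc1, which turns ornithine into putrescine, was at 353, 306 and 328 CPM in WT, 1030, 1080 and 1030 in KD1, and 213, 208 and 211 in KD2. It rose in KD1 (log2 fold change 1.67 ± 0.0595, adjusted p = 1.8e-11), while the -0.64 of KD2 did not reach the fold limit, and the lines differed by -2.31 ± 0.0608 (KD2 against KD1, adjusted p = 5.1e-13). Smox, the spermine oxidase, rose in both lines, from 8.81 CPM to 37.7 in KD1 (log2 fold change 2.10 ± 0.133, adjusted p = 9.2e-09) and 20.2 in KD2 (1.19 ± 0.138, adjusted p = 3.9e-06). Paox, which oxidises acetylated polyamines, had 138, 181 and 135 counts in WT, 219, 209 and 191 in KD1, and only 8, 8 and 7 in KD2. Its fall in KD2 (log2 fold change -4.48 ± 0.171, adjusted p = 8.3e-11) was the deepest of the list in that line. Sat2, named for an acetyltransferase of polyamines, rose in KD2 from 0.865 to 3.74 CPM (log2 fold change 2.09 ± 0.195, adjusted p = 4.6e-07). Sat1, of the same list, fell in KD2 from 112 to 43.4 CPM (log2 fold change -1.36 ± 0.079, adjusted p = 4.1e-09).

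Other carriers of cationic amino acids and ornithine, with 11 of 14 genes tested, held the most distant value of the 7 pathway lists in KD1 against WT. In KD1 3 were called higher and 2 lower (27.3% and 18.2%, beside 9.34% and 7.49% of all genes). The KD2 counts were 2 and 3 (18.2% and 27.3%, beside 14.5% and 6.71%). Slc6a14, a concentrating carrier of neutral and cationic amino acids, had 2, 5 and 13 counts in WT, 2270, 1847 and 2149 in KD1, and 4, 2 and 3 in KD2. It passed the filter on low counts only through its KD1 counts, so nothing is read from its call in KD1. Its log2 fold change there was 8.02 ± 0.204 (SE). The ratio of pooled counts to WT was 263, with a 95% exact interval of 170 to 432. WT replicate 3 holds most of the WT counts, and without it the log2 fold change was 8.99, which the interval does not cover. Its KD2 value, -1.32 ± 0.666, was not called (adjusted p = 0.094). It was called with DESeq2 (-1.36), with no filter beyond 1 count (-1.35) and without WT replicate 1 (-1.69), and was -0.35 without WT replicate 3. Slc7a8, a carrier of neutral amino acids, had 26, 27 and 25 counts in WT, 2095, 2101 and 1943 in KD1, and 10, 5 and 4 in KD2. It rose in KD1 (log2 fold change 6.04 ± 0.115, adjusted p = 5.2e-14) and fell in KD2 (-2.22 ± 0.282, adjusted p = 9.2e-06). Slc7a7, a partner of the shared heavy chain Slc3a2 in exporting cationic amino acids, rose from 0.593 CPM to 2.59 and 2.47 (log2 fold change 2.10 and 2.04, adjusted p = 2.6e-06 and 3e-06). Slc3a2 itself fell from 751 CPM to 324 and 334 (log2 fold change -1.21 and -1.17, adjusted p = 3.5e-09 and 5.7e-09). Slc7a5, which pairs with the same heavy chain to carry large neutral amino acids, fell from 1340 CPM to 357 in KD1 and 326 in KD2 (log2 fold change -1.91 and -2.04, adjusted p = 6.4e-12 and 9.1e-12).

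In the list for methylation, citrullination and arginylation of protein arginine, 14 of 16 genes were tested, with 5 called higher in KD1 (35.7%, beside 9.34% of all genes). In KD2 2 were called higher and 3 lower (14.3% and 21.4%, beside 14.5% and 6.71%). Of the 4 peptidylarginine deiminases in the list, which turn arginine in proteins into citrulline, Padi1, Padi3 and Padi4 were called higher in KD1. Padi2 was not called, at 7.04 CPM in WT and 5.58 in KD1 with overlapping cultures. All 4 deiminase genes lie at chr4:140745865-140952586, and whether their calls are independent of each other was not tested. Padi3 had 473, 830 and 609 counts in WT, 4832, 4651 and 4446 in KD1, and 293, 337 and 285 in KD2, so that it rose in KD1 (log2 fold change 2.63 ± 0.0995, adjusted p = 3.5e-11) and fell in KD2 (-1.25 ± 0.109, adjusted p = 2.5e-07). Padi1 rose in KD1 from 4.86 to 44.2 CPM (log2 fold change 3.17 ± 0.115, adjusted p = 2.2e-11) and Padi4 from 31.1 to 123 CPM (1.98 ± 0.08, adjusted p = 7e-11). In KD2 these were at 4.28 and 23.9 CPM, with log2 fold changes of -0.21 and -0.39 that were not called. Ddah2, the relative of Ddah1, rose from 0.843 CPM to 1.69 in KD1 (log2 fold change 1.02 ± 0.23, adjusted p = 0.0018) and 2.17 in KD2 (1.35 ± 0.224, adjusted p = 0.00011). Its KD1 call ended without WT replicate 2 (0.89) and without KD1 replicate 1 or 2 (0.97 each). Prmt1, the main source of asymmetric dimethylarginine, was at 189, 158 and 117 CPM and was not called.

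Of 12 genes whose proteins bind nitric oxide synthases, 9 were tested. Dlg4, the scaffold that anchors the neuronal synthase at synapses, rose in both lines, from 46, 63 and 54 counts in WT to 486, 400 and 419 in KD1 (log2 fold change 2.75 ± 0.116, adjusted p = 1.1e-10) and 960, 1154 and 925 in KD2 (4.02 ± 0.11, adjusted p = 3.4e-12). It was the only gene of this list called against WT (11.1% of those tested in each line, beside 9.34% and 14.5% of all genes called higher). The synthase it binds was not detected beyond 1 count. Hsp90ab1, a chaperone and the most abundant gene of the list at 2580 CPM in WT, had log2 fold changes of 0.26 and 0.08.

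Of 15 genes of the response to nitric oxide, 6 were tested. The soluble guanylate cyclase subunits Gucy1a1 and Gucy1b1, which bind nitric oxide to make cyclic GMP, had mean levels of at most 0.0131 CPM in any line. These cultures thus gave no readable level of the main nitric oxide receptor in any line. Prkg2, a membrane-bound cyclic GMP kinase, had 105, 92.8 and 99.9 CPM in WT, 178, 190 and 176 in KD1, and 34.4, 41.4 and 30.2 in KD2. It fell in KD2 (log2 fold change -1.48 ± 0.0956, adjusted p = 1.2e-08), while its KD1 value of 0.87 ± 0.0908 was under the fold limit. Pde5a, a cyclic GMP phosphodiesterase, had 20, 29 and 16 counts in WT, 0, 1 and 1 in KD1, and 25, 36 and 24 in KD2. The gene was called lower in KD1 (adjusted p = 1e-06), with a ratio of pooled counts between WT and KD1 of 38.7 and a 95% exact interval of 10.3 to 326. These KD1 counts lie under the floor, and against a floor of 3 counts per library WT was at least 8.48-fold higher. Txn1, which removes nitrosothiols and led the list, was at 448 CPM in KD1 and 338 in KD2 and was not called.

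**Figure D3:**
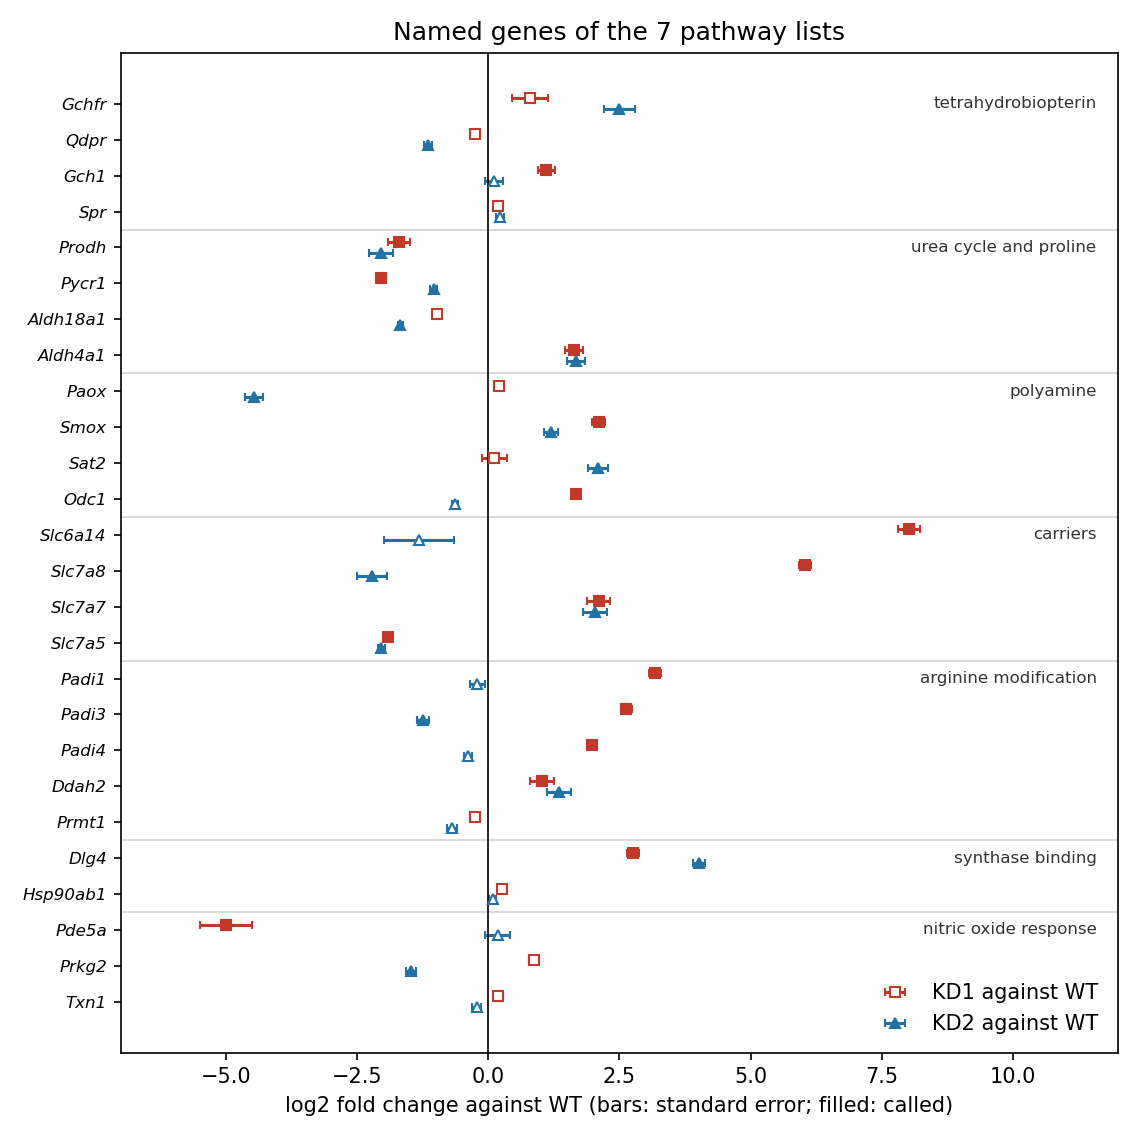
Log2 fold changes against WT of genes named from the 7 pathway lists, with standard errors as bars. Filled symbols were called and open symbols were not. Slc6a14 (8.02) and Slc7a8 (6.04) lie furthest to the right in KD1 and Paox (-4.48) furthest to the left in KD2, and the drawn value of Pde5a in KD1 rests on 2 counts and depends on the prior count of the fit.

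Genes known to switch on Nos2 were 18 receptors, kinases and transcription factors, all of them tested. In KD1 4 were called, each higher (22.2% against 9.34% of all genes), and in KD2 2, each higher (11.1% against 14.5%). Since the list was chosen with earlier results of these data known, nothing is read from these shares. The KD2 count became 5 without KD2 replicate 3, where 2388 of all 15597 genes tested were called higher. Log2 fold changes over the list had a median of 0.43 in KD1 and 0.30 in KD2, beside -0.03 and 0.01 over all genes. Irf1, which binds the Nos2 promoter in activated macrophages, had 608, 821 and 677 counts in WT, 2537, 2414 and 2383 in KD1, and 2123, 2634 and 2050 in KD2. It rose in both lines by log2 fold changes of 1.55 ± 0.07 (SE, adjusted p = 2.4e-10) and 1.50 ± 0.07 (adjusted p = 5.3e-10), and the difference between the lines was -0.05 ± 0.0659 (adjusted p = 0.48). Tlr2, a receptor for bacterial lipoproteins, also rose in both, from 8.08 CPM to 16.6 in KD1 (1.04 ± 0.0925, adjusted p = 3.4e-07) and 18.6 in KD2 (1.21 ± 0.092, adjusted p = 5.8e-08).

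Nfkbiz, a nuclear partner of NF-kappa B, and Ifngr2, a chain of the interferon gamma receptor, were called against WT in KD1. Nfkbiz went from 45.4 CPM in WT to 178 in KD1 (log2 fold change 1.97 ± 0.0721, adjusted p = 2.5e-11) and was at 85.7 in KD2 (0.92 ± 0.0716), where it was called without KD2 replicate 3 (1.00). Ifngr2 went from 40.4 CPM to 95.8 in KD1 (1.24 ± 0.0635, adjusted p = 9.2e-10) and was at 46.6 in KD2 (0.20 ± 0.0645). Ifngr1, the other chain of that receptor, lay below WT in every culture of both lines (log2 fold change -0.77 ± 0.0614, adjusted p = 1.1e-07, and -0.35 ± 0.0605, adjusted p = 0.00014) and was not called. Nfkbiz and Ifngr2 were both lower in KD2 than in KD1 (-1.05 ± 0.069, adjusted p = 9.4e-09, and -1.04 ± 0.0626, adjusted p = 3.7e-09), though the former missed the fold limit without KD2 replicate 3 (-0.98). Nfkb1, the most abundant of the list, was at 391, 522 and 372 CPM in WT, KD1 and KD2 and was not called.

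The genes most like Nos2 were found by the distance between pairs of log2 fold changes against WT (KD1 and KD2), over 14576 other tested genes with more than 3 counts in some culture of each line. The nearest were Clic5, a chloride channel protein (distance 1), the interferon-induced Rsad2 (1.98), the transcribed pseudogene Gm8995 (2.31), Acod1, which makes itaconate (2.34), and the chemokine Cxcl3 (2.52). Clic5 had 7, 3 and 4 counts in WT, 1573, 1619 and 1490 in KD1, and 64, 129 and 57 in KD2. Acod1 had 14 counts in each WT culture, 5830, 5258 and 5526 in KD1, and 76, 88 and 84 in KD2. That KD1 lay far above WT and above KD2 in such genes follows from how they were chosen. With at least 10 counts asked in each line, Ifit1 (3.05) and Oasl1 (3.6) took the places of Clic5 and Rsad2.

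Nos2 lies at chr11:78920787-78960254 in GRCm38, on the forward strand. The 69 other genes tested within 2 Mb had a median log2 fold change of 0.191 in KD1 and 0.102 in KD2, beside 0.154 and 0.096 over the 1238 genes tested on chromosome 11. In KD1 7 of the 69 were called higher and 3 lower (10.1% and 4.35%, beside 9.34% and 7.49% of all genes tested). In KD2 it was 11 and 2 (15.9% and 2.9%, beside 14.5% and 6.71%). The nearest tested gene on one side, Lyrm9, 73.9 kb away, was at 10.2, 13.4 and 15.8 CPM in WT, KD1 and KD2. On the other side lies Lgals9, which encodes galectin 9, at 2.72 kb from the end of Nos2. It had 29, 43 and 28 counts in WT, 222, 234 and 188 in KD1, and 1033, 1190 and 871 in KD2. Its log2 fold changes were 2.43 ± 0.13 (adjusted p = 1.5e-09) and 4.75 ± 0.113 (adjusted p = 1.1e-12), so that KD2 was the higher line for Lgals9 and KD1 for Nos2.

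RefSeq promoter windows of 300 bases (GRCm38.p6, 250 before to 50 after the start) were matched for 4 of the 10 genes, Nos1, Ass1, Slc7a1 with 2 windows, and Ddah1, and for 4 of the 5 genes most like Nos2, Clic5, Rsad2, Acod1 and Cxcl3. They were searched on both strands for GGGNNTTTC (kappa B core), TTCNNNGAA (GAS), GAAANNGAA (ISRE core), TTGCNNAA (C/EBP) and the 6 letters TATAAA, which occur in 4.36%, 8.3%, 8.56%, 10.8% and 13.6% of all 32851 windows. Ass1 and Nos1 each held a kappa B core, 1 window of Slc7a1 held a GAS and a TATAAA match, and Ddah1 and Clic5 held none of the 5 motifs. Rsad2 held an ISRE core and a TATAAA match, Cxcl3 a kappa B core and a TATAAA match, and Acod1 a TATAAA match. A match is only a run of letters and says nothing of binding. The windows of Ass1 at chr2:31470020-31470319 (forward strand), Rsad2 at chr12:26456403-26456702 (reverse strand) and Cxcl3 at chr5:90785851-90786150 (forward strand) are printed 5′ to 3′ with motif matches in capitals, as those with a kappa B or ISRE match among the genes above the floor.
Ass1: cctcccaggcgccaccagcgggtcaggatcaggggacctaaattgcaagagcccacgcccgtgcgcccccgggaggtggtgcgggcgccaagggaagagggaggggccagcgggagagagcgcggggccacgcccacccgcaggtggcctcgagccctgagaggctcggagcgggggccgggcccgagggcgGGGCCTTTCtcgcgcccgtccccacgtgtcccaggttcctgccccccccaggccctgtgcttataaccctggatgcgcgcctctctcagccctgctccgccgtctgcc
Rsad2: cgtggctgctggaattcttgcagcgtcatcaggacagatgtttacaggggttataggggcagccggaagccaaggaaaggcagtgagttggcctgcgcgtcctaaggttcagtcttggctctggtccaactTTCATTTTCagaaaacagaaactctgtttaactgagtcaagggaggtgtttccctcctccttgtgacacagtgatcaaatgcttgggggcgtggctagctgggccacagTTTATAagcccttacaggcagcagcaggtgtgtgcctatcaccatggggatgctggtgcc
Cxcl3: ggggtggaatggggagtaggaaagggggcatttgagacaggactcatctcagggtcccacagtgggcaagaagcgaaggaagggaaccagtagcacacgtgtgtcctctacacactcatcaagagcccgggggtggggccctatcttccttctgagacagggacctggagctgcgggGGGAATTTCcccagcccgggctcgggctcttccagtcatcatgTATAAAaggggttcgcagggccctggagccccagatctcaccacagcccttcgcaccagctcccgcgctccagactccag
In Ass1 the kappa B match spans -58 to -50 from the start. In Cxcl3 it spans -73 to -65, and in Rsad2 the ISRE match spans -119 to -111 on the opposite strand.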

How the data were processed

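Per the labels and the study's methods, reads were trimmed by the authors (fastp), aligned by HISAT2 to the GRCm38 genome, and assigned to exons by featureCounts of the Subread package. The authors then deposited whole-number counts per gene, without normalization, for 9 cultures, and 0 columns were left without a culture. Tool versions, strand setting and treatment of multi-mapping reads are not given in the sources used here, and the authors' DESeq2 output was not used here.

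All genes were fitted here with edgeR 4.0.16 in R 4.3.3: TMM scaling, its expression filter on the 3 lines, and its quasi-likelihood test, with the 9 cultures in 1 model that held the line only. The Benjamini-Hochberg adjustment ran over 15253 genes. CPM are counts per 1000000 of the TMM-scaled total of the genes tested. Each standard error is the log2 fold change divided by the root of its F statistic. Exon lengths, positions and shared 50-base windows came from a GENCODE annotation of GRCm38, in which 53569 of the table's names were found directly and 1 through an older name, and sequence sharing was searched for the 10 genes and Vangl2 only. Promoter windows came from RefSeq. Depth ranged from 19231428 to 28360592 counts per culture. The fit was tested on simulated data.

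Of the 10 genes 2 are not reported here, nor is the most abundant gene of 1 list, though counts over the lists include it. The members and lists were chosen with earlier results of these data known. From each pathway or regulator list, up to 4 called genes of largest absolute log2 fold change in either line and the gene of highest mean expression were named, with the 5 genes most like Nos2, its nearest tested neighbours, and from marker lists the most abundant gene and those never over 3 counts. Padi2, Slc3a2, Sat1, Gucy1a1, Gucy1b1, Krt8, Cd68, Csf1r, Mrc1, Lyz2, Cdh5, Egfl7, Ifngr1 and Atg9b were added after their values were seen. Alternatives were DESeq2 1.42.0, other scalings and filters, the 6 cultures compared alone, a block on replicate number, and leaving out cultures. Leaving out WT replicate 1 and KD2 replicate 3 together was chosen after seeing the data.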

Additional observations from a re-analysis of the deposited data

Results flagged for a closer look

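For Ass1 every KD1 culture lay above WT and every KD2 culture below it, at log2 fold changes of 0.72 and -1.89. No p-value is given for it, because the gene was chosen with these comparisons known.

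Slc7a8 and Padi3 were called in opposite directions against WT, higher in KD1 and lower in KD2, and the direct comparison of KD2 with KD1 gave log2 fold changes of -8.26 ± 0.142 and -3.87 ± 0.108 (SE, adjusted p = 1.3e-14 and 8.8e-13, edgeR quasi-likelihood test). Among the marker genes, Pecam1 was likewise higher in KD1 and lower in KD2, with -2.41 ± 0.158 between KD2 and KD1 (adjusted p = 9.4e-09), a pattern that Cdh5 and Egfl7 of the same list did not share. Col1a2 went the other way, with 21, 40 and 17 counts in WT, 0 in every KD1 culture and 71, 98 and 64 in KD2, so that KD2 was at least 26.5-fold higher than KD1 against a floor of 3 counts per library. These genes share the same WT cultures in both comparisons.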

How the results depend on the processing

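Of 207 values recomputed for the counts of calls and the descriptions of Nos2, 196 stayed within 1.5 times the count or within the spread of replicates. When at least 10 counts were asked of every culture, 12296 genes were tested instead of 15253. Pathway genes called lower in KD1 and KD2 then numbered 3 and 9, beside 553 and 525 of all genes (1143 and 1024 in the main fit). Those called in KD2 against KD1 numbered 3 higher and 8 lower, beside 1181 and 733 of all genes (2247 and 1309 in the main fit). With library size alone, the median log2 fold change of all genes shifted to 0.119 in KD2 against WT and 0.142 in KD2 against KD1. Of all 15253 genes, 2477 were then called higher in KD2 against WT and 1118 lower in KD2 against KD1. Regulators called higher in KD2 numbered 5 under that setting. Those called lower in KD2 against KD1 numbered 0, as Nfkbiz (-0.92) and Ifngr2 (-0.91) missed the fold limit. Without WT replicate 1 and KD2 replicate 3 together, a setting chosen after seeing the data, that last count was 1. The cause was not tested.

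Leaving out 1 culture at a time, pathway genes called higher in KD1 ranged from 13 to 15, lower stayed at 6, higher in KD2 ranged from 10 to 12 and lower from 13 to 14. Between KD2 and KD1 they ranged from 5 to 6 higher and 11 to 13 lower. Regulators called higher ranged from 4 to 4 in KD1 and from 2 to 5 in KD2, the 5 without KD2 replicate 3, and those lower in KD2 against KD1 from 1 to 2. Of the 5 genes most like Nos2, 3 remained under the stricter count filter, and the median around Nos2 in KD1 became 0.282 in a 1 Mb window.

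Same-numbered cultures did not deviate together more than others did (correlations across genes from -0.0652 to 0.0789, beside -0.101 to 0.107 for different numbers). These correlations cannot show what the replicate numbers mark, which the labels do not say. With the replicate block, pathway genes called in KD1 numbered 14 higher and 6 lower, in KD2 10 and 14, and in KD2 against KD1 6 and 13.

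No log2 fold change of the 10 genes that met the call rule reversed, and 464 of 479 recomputed values stayed within the spread of replicates. A prior count of 2 gave 8.50 and 4.41 for Nos2. Nos3, at 6 to 21 counts, ranged from 0.18 to 1.00 in KD1 and from -0.64 to 0.52 in KD2 as single cultures were left out. Of 1661 recomputed values of named genes and Vangl2, 26 lost a call, 10 gained one and 0 reversed, 10 of the losses being Pycr1 between KD2 and KD1, whose log2 fold change of 1.00 lies at the limit.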

Other observations

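Among the marker genes, named here after their values were seen, collagens had few counts in KD1. Col1a1 had 108, 216 and 142 counts in WT, 14, 13 and 17 in KD1, and 106, 115 and 102 in KD2 (log2 fold change in KD1 -3.62 ± 0.226, adjusted p = 7.7e-09, edgeR quasi-likelihood test). Col3a1 had 59, 80 and 59 counts in WT, 0, 1 and 0 in KD1, and 79, 68 and 55 in KD2. Cldn4, a tight junction claudin, had 471, 512 and 440 counts in WT, 17272, 16096 and 15562 in KD1, and 441, 519 and 450 in KD2. Its rise in KD1 (log2 fold change 4.85 ± 0.094, adjusted p = 6.3e-14) had no counterpart in KD2 (-0.21 ± 0.0924, adjusted p = 0.056), and KD2 differed from KD1 by -5.06 ± 0.0949 (adjusted p = 2.3e-14).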
